A study of Mus musculus with 10 samples.

Results

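The cytosolic ribosomal protein genes encode the protein part of the ribosome that translates messenger RNA in the cytosol. They were taken as the rows whose gene symbol is Rpl or Rps followed by a number, with the suffixes a, x, l and l1 allowed, together with Rplp0 to Rplp2 and Rpsa. The rule used symbols alone and no measured value. It found 83 of the 23923 genes counted: 43 proteins of the large subunit, 30 of the small subunit, 3 of the P stalk, 5 diverged paralogs and 2 rows that GENCODE annotates as pseudogenes. The members lie on 19 chromosomes. Of the 83, 80 had enough counts to be tested, and Rpl24, Rpl3l and Rpl39l did not.

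RNA was measured by sequencing of the polyadenylated fraction of total RNA of dorsal root ganglia of mice, where the cell bodies of sensory neurons lie next to the spinal cord. All samples came from animals aged 1 month. In the genotype Kif2a fl/fl; Avil cre, named Kif2a cKO here (5 libraries), Cre is driven by Avil, the advillin gene of sensory neurons, and is aimed at a floxed Kif2a, which encodes a kinesin that shortens microtubules. The control genotype Kif2a fl/fl (5 libraries) carries the same floxed alleles without Cre, so the presence of Cre and the loss of Kif2a cannot be told apart. Nothing in the labels ties each library to its own animal, and the p-values measure only how much these libraries vary, which may be technical. The ganglion also holds Schwann cells, satellite glia, fibroblasts, vessels and macrophages, and in such bulk RNA fewer cells of a type and less RNA per cell cannot be told apart.

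Libraries held between 28686616 and 73031457 counts in Kif2a cKO and between 17506135 and 34500320 in control. Levels are given in CPM, the counts of a gene relative to the library's composition-scaled total. Sensory neuron markers were abundant in every library, with a summed level of 23327 to 28133 CPM in Kif2a cKO and 16726 to 26841 CPM in control. Kif2a averaged 69.0 ± 4.44 CPM in Kif2a cKO and 70.2 ± 8.61 CPM in control (SD, n = 5 each). A count over the whole gene and all cells does not check the deletion of floxed exons, which the labels do not name. Avil averaged 383 ± 55.0 CPM in Kif2a cKO and 678 ± 149 CPM in control (SD, n = 5 each), a log2 fold change of -0.82 (edgeR adjusted p = 0.351). Transcripts of the spinal cord were also present: 16 of its 17 tested markers had a fold change below 0, and their summed level was 231 to 577 CPM in Kif2a cKO and 264 to 2639 CPM in control, highest in controls 1, 3 and 5. Slc17a7, the 1 marker above 0, made up 187 of the 231 CPM in Kif2a cKO 2 and 183 of the 264 CPM in control 4. Slc17a7 had its lowest level, 88.7 CPM, in control 3, where the sum was highest, so it did not follow the other markers of the list. The low ends of these sums are mostly this 1 gene and say little about the spinal cord. Among the spinal cord markers, Opalin and Olig2 were at 0 in Kif2a cKO 2, Slc32a1 in controls 2 and 4, and Chat in control 2.

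A ribosome is built from ribosomal RNA and about equal molar amounts of each ribosomal protein, and surplus proteins are degraded. Many of their messenger RNAs begin with a C followed by a run of pyrimidines, the 5′ terminal oligopyrimidine (TOP) motif, through which the kinase mTORC1 and the RNA-binding protein LARP1 control their translation. In neurons, messenger RNAs of ribosomal proteins are also known to travel into axons. When ribosome assembly is disturbed, Rpl5 and Rpl11 bind Mdm2 and p53 is stabilised.

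Start-site sequence is shown for 10 members, because many messenger RNAs of this class, as of other TOP genes, are known to begin with a pyrimidine run. RefSeq (GRCm38.p6) gave start windows for 62 of the 83 genes, 74 windows in all. In each line below, 15 bases before the annotated start and 15 bases from the start onward are given, and capitals mark the unbroken run of C and T that holds the start base, where there is one. The first 7 are canonical members with such a run, and Rps27l, Rpl22l1 and Rpl7l1 are diverged paralogs. Rpl38 lies at chr11:114668565-114668594 (plus strand), Rplp2 at chr7:141447636-141447665 (plus), Rps27 at chr3:90213634-90213663 (minus), Rps18 at chr17:33955651-33955680 (minus) and Rps6 at chr4:86857353-86857382 (minus). Rpl39 lies at chrX:37085208-37085237 (minus), Rpl28 at chr7:4792950-4792979 (plus), Rps27l at chr9:66946071-66946100 (plus), Rpl22l1 at chr3:28805493-28805522 (plus) and Rpl7l1 at chr17:46782642-46782671 (minus).
Rpl38: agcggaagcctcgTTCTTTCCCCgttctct
Rplp2: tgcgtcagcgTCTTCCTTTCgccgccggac
Rps27: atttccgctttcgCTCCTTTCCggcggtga
Rps18: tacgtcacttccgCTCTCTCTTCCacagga
Rps6: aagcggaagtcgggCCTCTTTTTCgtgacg
Rpl39: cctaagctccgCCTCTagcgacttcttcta
Rpl28: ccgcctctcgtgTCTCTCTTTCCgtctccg
Rps27l: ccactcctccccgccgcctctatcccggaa
Rpl22l1: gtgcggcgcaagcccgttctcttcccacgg
Rpl7l1: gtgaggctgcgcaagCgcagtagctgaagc

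The start base lay in a run of at least 5 pyrimidines in 21 of the 74 windows of ribosomal protein genes (28.4%), against 10.1% of all 32851 promoter windows. A run of at least 8 pyrimidines lay within 25 bases of the start in 35 windows (47.3%), against 19.9% of all. In the 18 windows of other messenger RNAs with a TOP motif, both shares were 44.4%, so such runs are not particular to the ribosomal protein genes. Annotated starts can be some bases away from the main start, so a window without a run says only that these letters are not at that base. In the 300-base promoter windows, CCGGAAG, searched on both strands, was present in 26 of 74 (35.1%), against 8.86% of all promoters and 34.7% of the 75 windows of mitochondrial ribosomal protein genes. The motif GGGCGG was present in 58.1%, against 35.7% of all and 52.0% of the mitochondrial ribosomal protein windows. In the same order, AAGATGGC was present in 10.8%, against 2.75% and 16.0%, and TATAAA in 10.8%, against 13.6% and 6.67%. These are matches of letters and not measured binding.

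Per kilobase of transcript, the canonical genes ran from 0.512 to 741 CPM per kb. The median of the 76 was 176 CPM per kb over the 10 libraries, and the quartiles were 138 and 256. Rps15, which lies near the decoding site of the small subunit, had the highest level at 741 CPM per kb, followed by Rplp1 (719) and Rps14 (648). Rps27 and Rpl41 came next with 415 and 404 CPM per kb. Rplp1 and Rplp2 form the flexible stalk that recruits elongation factors, and Rpl41 is a very short protein that bridges the subunits.

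At the low end, Rpl24, a subunit-bridging protein of the large subunit, had 21, 21, 1, 18 and 7 counts in Kif2a cKO libraries 1 to 5 and 17, 14, 6, 3 and 9 in controls 1 to 5. This is 0.512 CPM per kb, whereas the next lowest canonical gene, Rps10, had 8.21. Rpl13a (23.97), Rpl30 (26.6), Rpl5 (34.3) and Rpl35 (37.0) followed. Each such level depends on the 1 transcript length used for the gene. For Rpl5 that length was 2045 bases, and its level before division by length was 70.1 CPM. Rpl13a is known in human myeloid cells as part of the GAIT complex that silences inflammatory messenger RNAs. Rpl5 and Rpl35 are named here after their values were seen.

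Ribosomal protein genes have many processed pseudogenes, and how shared reads were counted is not given in the sources used here. For each transcript, the share of 50-base words that occur in no other annotated gene had a median of 39.4% over the canonical genes. Rps27 had the lowest share with 1.35%, 19 genes were under 20% and 4 were over 90%. Genes under 20% had a median of 166 CPM per kb and the others 182 CPM per kb. Levels of single members, Rpl24 and Rps10 (7.57% unique) among them, are therefore uncertain where reads were split between copies.

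**Figure D1:**
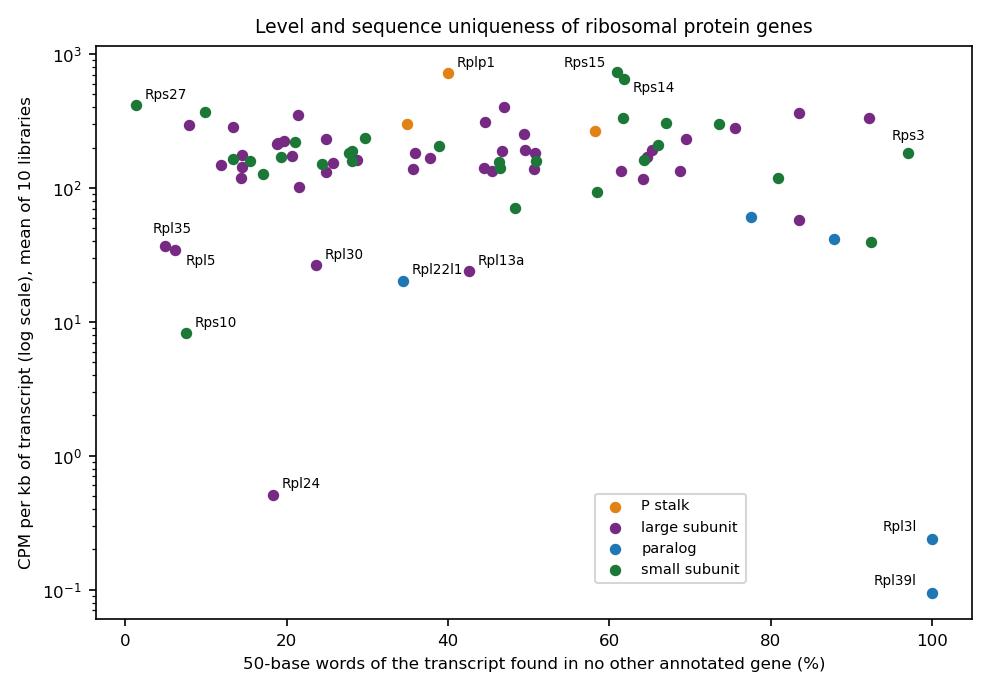
Level and sequence uniqueness of the canonical genes and paralogs: the x axis gives the percent of 50-base words of the transcript found in no other annotated gene, and the y axis the level in CPM per kb on a log scale, as the mean of 10 libraries; each point is a gene, coloured by its place in the ribosome. Most canonical genes lie near the median of 176 CPM per kb at every degree of uniqueness, with Rpl24 at 0.512 and Rps10 at 8.21 below them.

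The ribosomal protein genes varied together from library to library. The members took 1.07, 1.11, 1.21, 1.14 and 1.504% of all counts in Kif2a cKO libraries 1 to 5, against 1.09, 1.08, 1.37, 1.13 and 1.10% in controls 1 to 5. Kif2a cKO 5 and control 3 stood above the other libraries of their groups, and the groups overlapped. Counting error was far smaller than these gaps: the 95% Wilson interval was 1.204 to 1.212% in Kif2a cKO 3 and 1.361 to 1.369% in control 3. It covers counting error only. The share averaged 1.21 ± 0.175% in Kif2a cKO and 1.154 ± 0.120% in control (SD, n = 5 each), and the difference of 0.0515 percentage points was -0.0233 without Kif2a cKO 5, 0.0849 without Kif2a cKO 1 and 0.104 without control 3.

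Nearly all members took part in this library pattern. Of the 80 tested members, 9, 21, 75, 26 and 78 lay above their own mean over the 10 libraries in Kif2a cKO 1 to 5, against 8, 18, 76, 22 and 3 in controls 1 to 5. Of all tested genes, 49.6, 53.8, 47.8, 56.6 and 51.5% did so in Kif2a cKO 1 to 5. In controls 1 to 5 it was 47.7, 53.5, 51.0, 54.2 and 46.3%. Kif2a cKO 3 and 5 and control 3 were thus high for almost the whole set, and control 5 was low. Kif2a cKO 5 was the highest library for 68 members, and control 5 was the lowest for 38. In 58 members, Kif2a cKO 5 and control 3 were the highest pair. For these ranks no count over all genes is given. Once each library's mean over the canonical genes was removed, the median standard deviation of a gene over libraries was 0.080 on the log2 scale, against 0.180 before, and it was smaller in 69 of 75 genes. The mean removed was that of these same genes, which by itself tends to narrow their spread. No other gene set is given beside it.

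**Figure D2:**
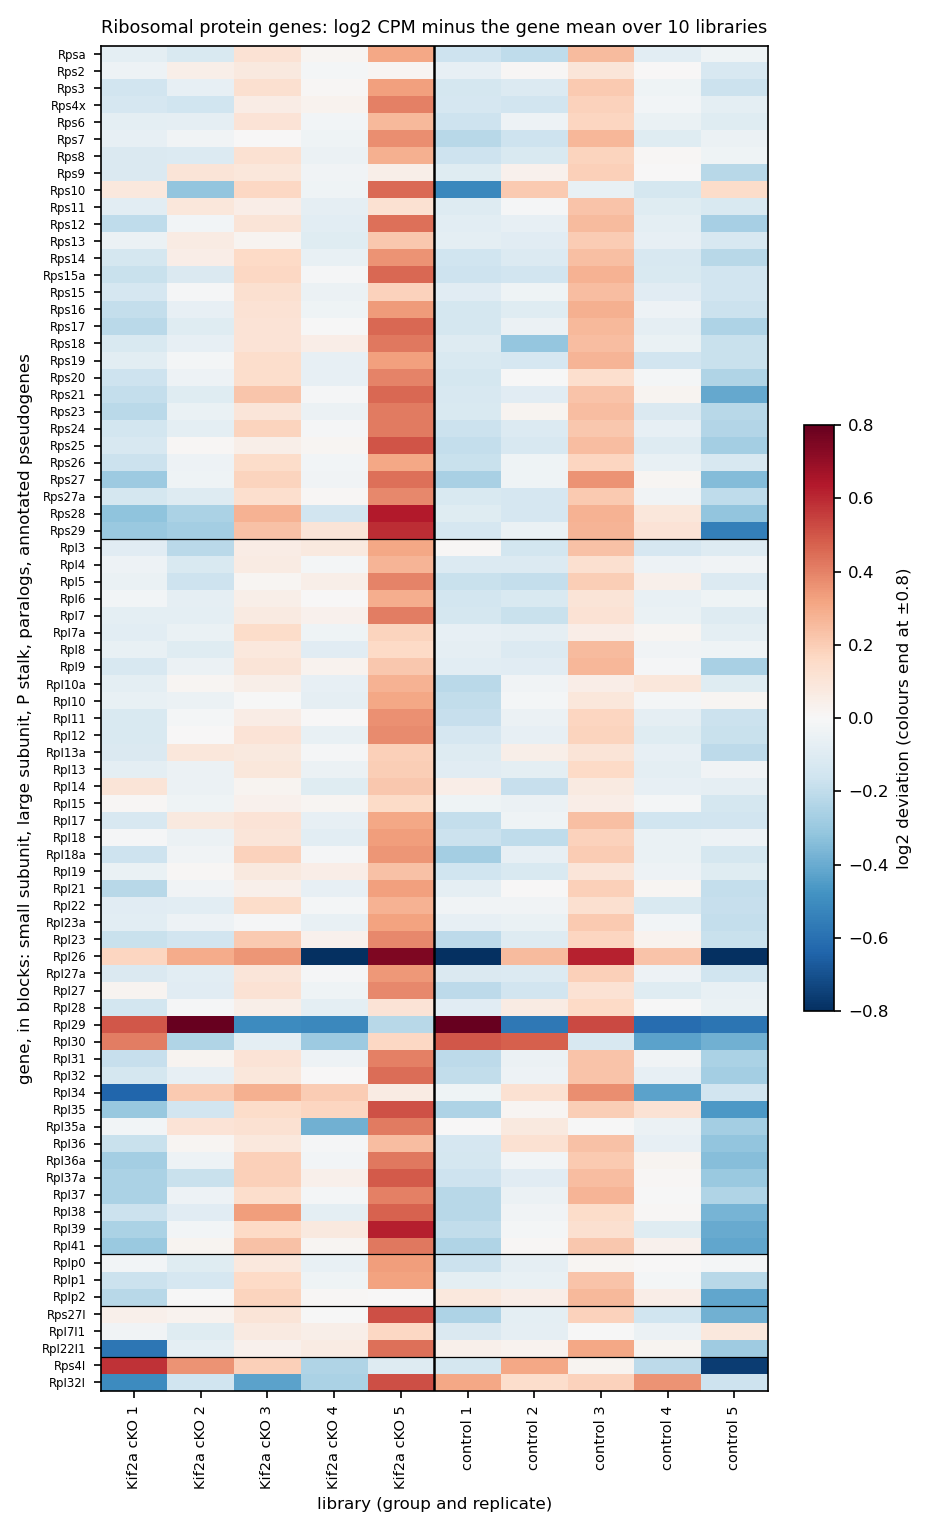
Level of the tested members in each library: rows are genes, in blocks from the small subunit at the top to the annotated pseudogenes, columns are the 5 Kif2a cKO and then the 5 control libraries, and colour is log2 CPM minus the gene's mean over the 10 libraries. The columns of Kif2a cKO 5 and control 3 are red for nearly all genes, whereas Rpl29 and Rpl30 have patterns of their own. Rpl26 is high in both columns but far lower in Kif2a cKO 4 and controls 1 and 5.

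A few large-subunit genes did not follow the others, and they are named here after their values were seen. Rpl26, near the exit of the peptide tunnel, had 87.8, 95.8, 99.6, 43.7 and 131 CPM in Kif2a cKO 1 to 5 and 39.1, 93.0, 120, 91.2 and 43.4 CPM in controls 1 to 5. Kif2a cKO 4 and controls 1 and 5 lay far below the remaining libraries. Rpl29 had 75.6, 112, 37.8, 37.4 and 46.0 CPM in Kif2a cKO 1 to 5 and 101, 36.0, 77.4, 35.1 and 35.8 CPM in controls 1 to 5. Here Kif2a cKO 1 and 2 and controls 1 and 3 were high, a different division from that of Rpl26. Rpl26 has 28.7% and Rpl29 21.5% unique words, and 84 other annotated genes share words with Rpl29. After removal of the library mean, both kept the widest spread of all canonical genes in the plot of levels by library.

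Several other measures moved with the same libraries. Within each genotype, sensory neuron markers had their lowest mean level in Kif2a cKO 5 (9.46 log2 CPM) and control 3 (9.12). Fibroblast markers were highest in these libraries (8.40 in Kif2a cKO 5 and 8.32 in control 3). So were macrophage markers (4.24 in Kif2a cKO 5 and 4.40 in control 3) and red blood cell markers (4.73 in Kif2a cKO 5 and 5.34 in control 3). The summed fibroblast level was 2191 to 3034 CPM in Kif2a cKO and 2045 to 2795 CPM in control, with 2 of 6 markers above 0 in fold change. Macrophage markers summed to 189 to 277 CPM in Kif2a cKO and 165 to 298 CPM in control (3 of 10 above 0), and red blood cell markers to 66.7 to 264 CPM in Kif2a cKO and 75.2 to 376 CPM in control (0 of 5 above 0). For each of these lists the genotypes overlapped, and none of the markers was at 0 in any library. Skeletal muscle markers summed to 3.83 to 197 CPM in Kif2a cKO and 3.58 to 139.8 CPM in control (8 of 8 above 0), highest in Kif2a cKO 5 and control 5. Counts from genes of the mitochondrial genome were highest in Kif2a cKO 3 (9.37% of counts), Kif2a cKO 5 (7.57%) and control 3 (7.81%). Spinal cord markers were highest in control 3, yet also high in controls 1 and 5, where ribosomal protein levels were low. The part of these transcripts in the ribosomal protein levels was not tested.

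Transcript length moved with the libraries too. The 970 other protein-coding genes with a transcript under 1000 bases had a median deviation from their own mean of -0.037, -0.023, 0.079, 0.020 and 0.185 on the log2 scale in Kif2a cKO 1 to 5. In controls 1 to 5 it was -0.086, -0.029, 0.054, -0.007 and -0.093. Kif2a cKO 5 was again the highest library and control 5 the lowest. Between genotypes, the log2 fold change of these short genes had a median of 0.08.

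**Figure D3:**
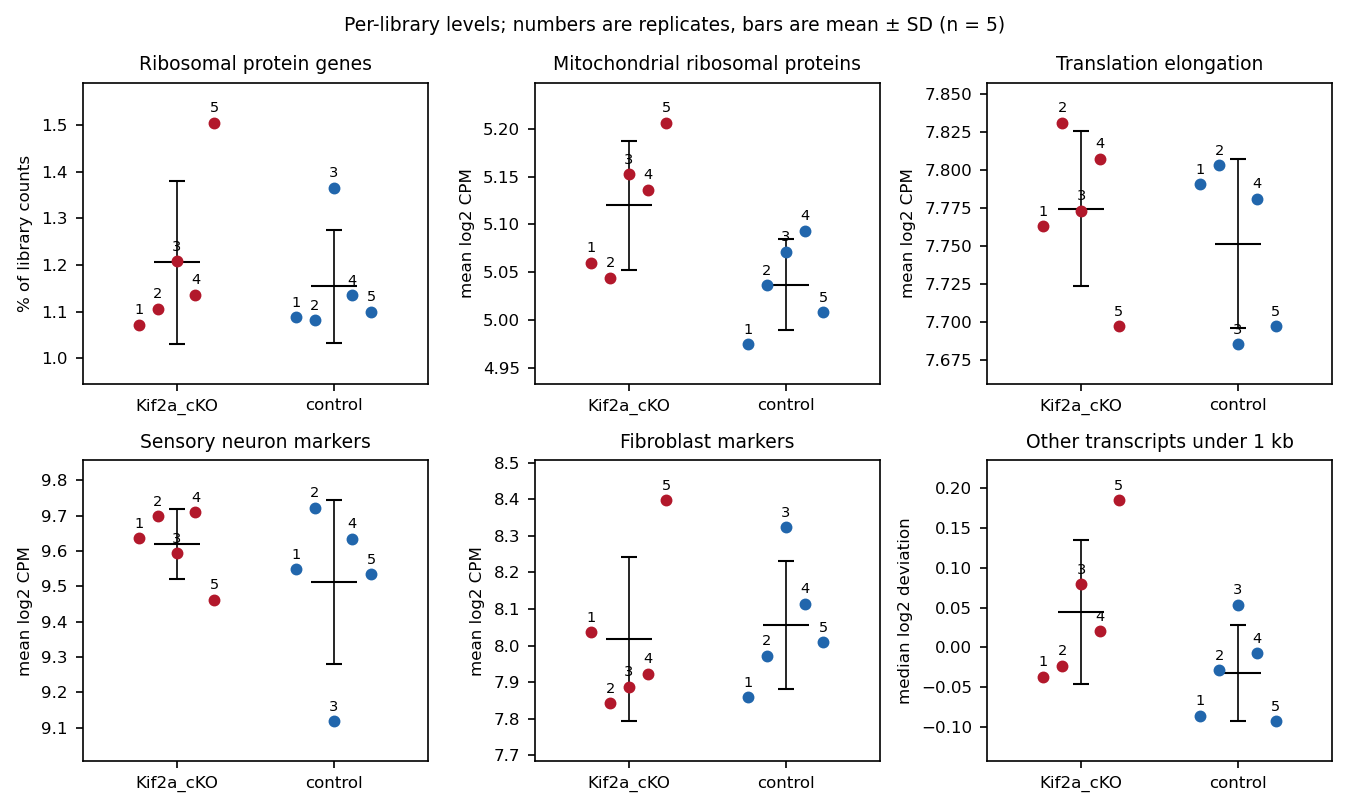
Values by library, Kif2a cKO left and control right: the ribosomal protein share of counts (%), mean log2 CPM of mitochondrial ribosomal protein, elongation, sensory neuron and fibroblast lists, and the median log2 deviation of other transcripts under 1 kb. Points are libraries numbered by replicate, and bars are mean ± SD (n = 5 each); Kif2a cKO 5 and control 3 are highest for the ribosomal protein share and the fibroblast list and lowest for sensory neurons.

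Between genotypes, no ribosomal protein gene was called higher or lower in Kif2a cKO ganglia, and the estimates leaned to small positive values. A gene is called at a Benjamini-Hochberg adjusted p under 0.05 over all 17439 genes tested with edgeR's quasi-likelihood test. Of the 80 tested members, 0 were called higher and 0 lower, against a background of 0.0172% of all tested genes called higher and 0.0% called lower. DESeq2 and limma-voom also called 0 members, with backgrounds of 0.184% and 0.0229%. The lowest adjusted p of a member was 0.703 by edgeR, 0.608 by DESeq2 and 0.690 by limma-voom. Taking unadjusted p under 0.05 instead, edgeR gave 1 member higher, against 2.97% of all genes, and 0 lower, against 4.01% (6.98% in either direction). The genotypes overlapped in all 80, whereas 0.734% of all genes lay higher in every Kif2a cKO library and 0.436% lower.

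The log2 fold change, Kif2a cKO over control, was above 0 in 74 of 80 members, against 52.1% of all tested genes. Its median was 0.10, a 7.26% higher level, with quartiles of 0.06 and 0.13, against a median of 0.01 over all genes. Without Kif2a cKO 5 the median was 0.01 and 54 of 81 members lay above 0. Without control 5 the median was 0.06, without control 3 it was 0.15, and without Kif2a cKO 5 and control 3 together, an alternative chosen after the data were seen, it was 0.07 (75 of 81 above 0). With the trend of fold change on transcript length removed, the median was 0.03 and 56 of 80 members lay above 0.

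**Figure D4:**
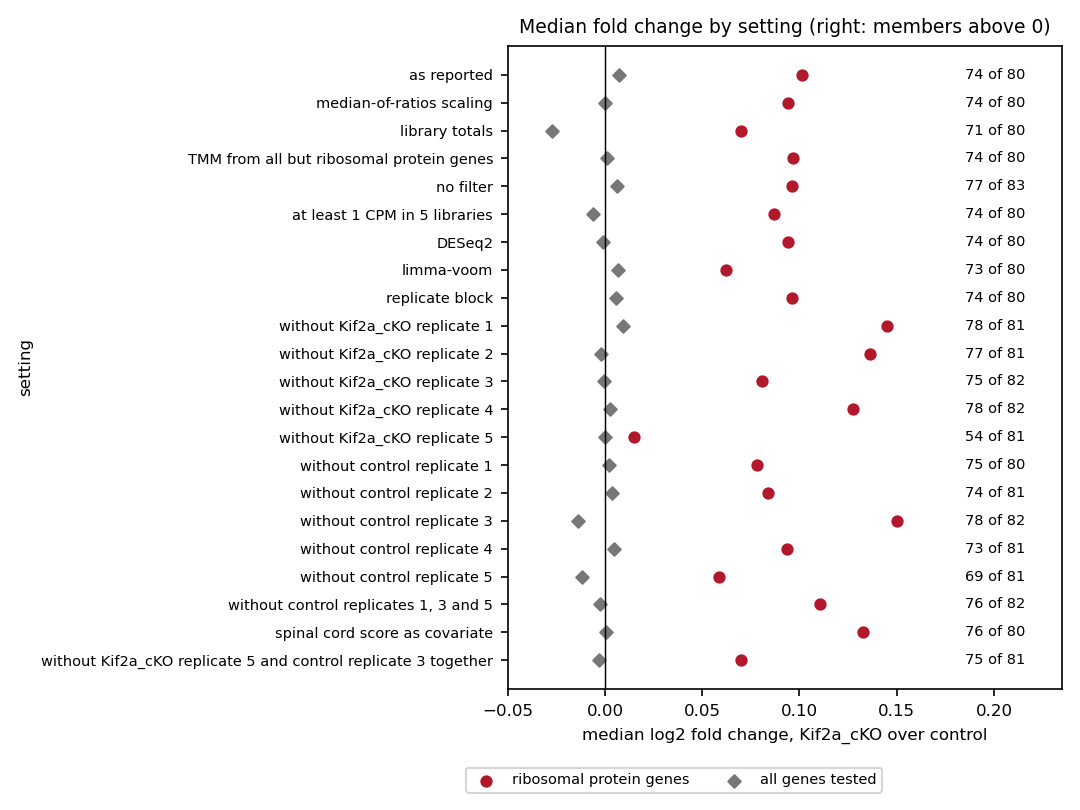
Median log2 fold change, Kif2a cKO over control (x axis), of the ribosomal protein genes (circles) and of all tested genes (diamonds) under each setting (y axis), with the number of members above 0 at the right. The median of the members lies between 0.01 without Kif2a cKO replicate 5 and 0.15 without control replicate 3.

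All 30 small-subunit genes had a fold change above 0 (median 0.10, from 0.03 to 0.19), with 28 of 30 above 0 when libraries were scaled by their totals and 19 of 30 without Kif2a cKO 5. Of the large subunit, 39 of 42 tested genes lay above 0 (median 0.10), and of the P stalk 2 of 3 (median 0.06). Without Kif2a cKO 5, 31 of 43 large-subunit genes lay above 0 (median 0.03), and 1 of 3 of the P stalk (median -0.03). The 8 tested proteins listed around the exit of the peptide tunnel had a median of 0.13, and Rpl5 and Rpl11, which bind 5S ribosomal RNA and Mdm2, a median of 0.11. Standard errors of the canonical genes ran from 0.062 to 0.436 with a median of 0.107, as large as the fold changes themselves. All 75 of their 95% intervals included 0. The upper bound was under a 1.5-fold increase in 73 of the 75, and Rpl26 and Rpl29 were the exceptions.

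**Figure D5:**
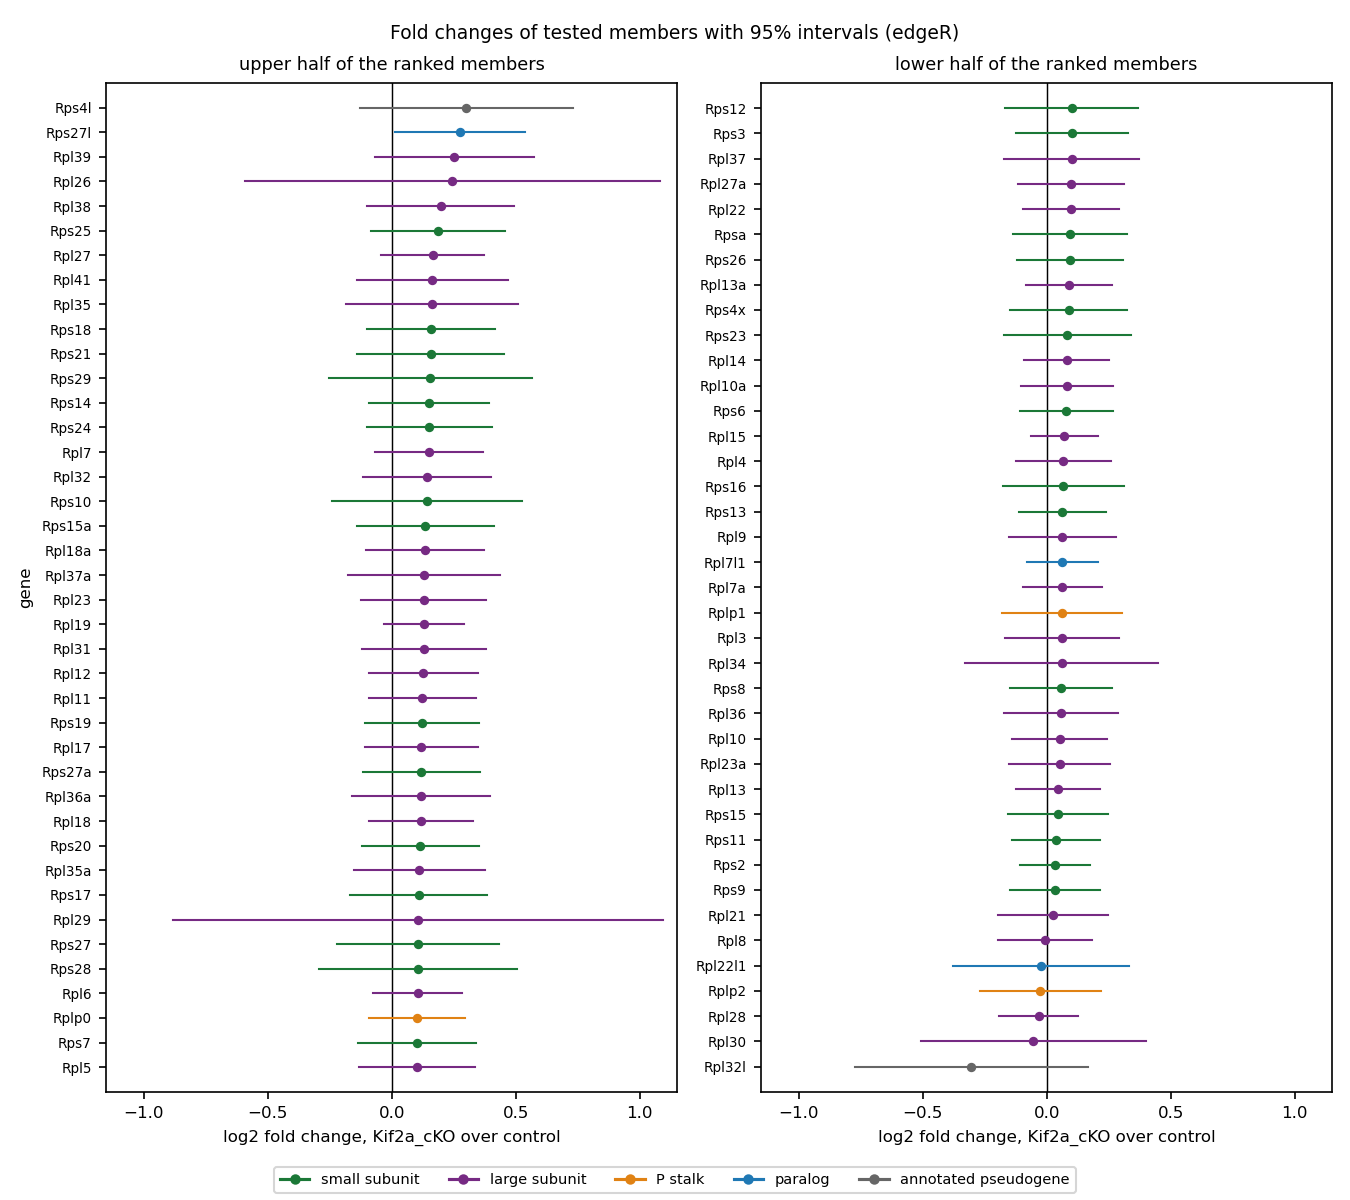
Log2 fold change, Kif2a cKO over control, of the tested members with 95% intervals (x axis), one gene per line, ranked from top left to bottom right and coloured by place in the ribosome. The quartiles of all tested members are 0.06 and 0.13, and every interval of a canonical gene crosses 0.

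Among small-subunit genes, Rps25, which several viral internal ribosome entry sites need, had the lowest p. It had 108, 118, 121, 119 and 167 CPM in Kif2a cKO 1 to 5, against 103, 107, 139, 109 and 97.5 CPM in controls 1 to 5. Kif2a cKO 5 and control 3 held the highest values of their groups, and the other libraries lay close together. On the log2 scale Kif2a cKO lay 0.19 above control (SE 0.125, edgeR adjusted p = 0.780), and 0.06 above it without Kif2a cKO 5. Rps14, a platform protein whose loss in humans underlies the anaemia of the 5q- syndrome, had 348, 398, 429, 368 and 492 CPM in Kif2a cKO 1 to 5, against 344, 355, 452, 351 and 329 CPM in controls 1 to 5, a log2 fold change of 0.15 (SE 0.112; 0.06 without Kif2a cKO 5). Rps15 had 336, 367, 403, 357 and 419 CPM in Kif2a cKO 1 to 5, against 347, 360, 438, 347 and 332 CPM in controls 1 to 5. Its highest library was control 3, and its log2 fold change was 0.05 (SE 0.093). Rps10, on the head of the small subunit, averaged 4.29 ± 0.844 CPM in Kif2a cKO and 3.88 ± 0.735 CPM in control (SD, n = 5 each).

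Of the large subunit, Rpl19, Rpl27, Rpl39, Rpl7 and Rpl38 had the lowest p among those above 0. Rpl39, a very small protein inside the exit tunnel, had 29.0, 34.1, 38.7, 36.6 and 53.3 CPM in Kif2a cKO 1 to 5, against 30.2, 34.3, 37.8, 32.4 and 26.2 CPM in controls 1 to 5. Kif2a cKO 5 stood high, and the remaining libraries of both genotypes overlapped. For Rpl39 the log2 fold change came to 0.25 (SE 0.147, edgeR adjusted p = 0.733), with 0.10 without Kif2a cKO 5. Rpl38, which in mouse embryos is needed for the translation of a set of Hox messenger RNAs, had 94.3, 100.1, 134, 101 and 147 CPM in Kif2a cKO 1 to 5, against 91.3, 104, 118, 107 and 82.3 CPM in controls 1 to 5. Its log2 fold change was 0.20 (SE 0.137), and it was 0.09 without Kif2a cKO 5, 0.13 without Kif2a cKO 3 and 0.12 without control 5. Rpl19 averaged 137 ± 10.5 CPM in Kif2a cKO and 125 ± 8.84 CPM in control (SD, n = 5 each), a log2 fold change of 0.13 (SE 0.075; 0.07 without Kif2a cKO 5). Rpl27, a gene mutated in some patients with Diamond-Blackfan anaemia, averaged 118 ± 16.0 and 105 ± 9.35 CPM, and Rpl7 averaged 231 ± 34.3 and 208 ± 17.2 CPM, in Kif2a cKO and in control. Without Kif2a cKO 5 the log2 fold change was 0.07 for Rpl27 and 0.04 for Rpl7.

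The 4 canonical genes below 0 were Rpl28, Rpl30, Rplp2 and Rpl8, and none differed from control by more than its error. Rpl28 had 132, 146, 151, 139 and 159 CPM in Kif2a cKO 1 to 5, against 138, 154, 164, 147 and 142 CPM in controls 1 to 5, a log2 fold change of -0.03 (SE 0.074). Rplp2 had 107, 125, 141, 126 and 125 CPM in Kif2a cKO 1 to 5, against 132, 129, 149, 129.8 and 93.8 CPM in controls 1 to 5. Its lowest library was control 5 and its highest control 3, and the log2 fold change was -0.03 (SE 0.112). Rpl8, which reaches the peptidyl transferase centre, averaged 284 ± 23.3 CPM in Kif2a cKO and 286 ± 30.1 CPM in control (SD, n = 5 each), a log2 fold change of -0.0055 (SE 0.087). Relative to the mean of the canonical genes in the same library, single genes differed between the genotypes by -0.13 (Rpl28) to 0.20 (Rpl26) on the log2 scale. No canonical gene separated the genotypes on that relative scale, for which no share over all genes is given. On the plain scale, 0.734% of all genes lay higher in every Kif2a cKO library and 0.436% lower. Finding none among so few genes is close to those shares.

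The diverged paralogs were each read against their partner. Rps27l, a homologue of Rps27 that p53 induces and that binds Mdm2, was the only member with an unadjusted p under 0.05 (0.0412) in the edgeR fit on genotype alone. With the replicate block the only such member was Rps4l, and without Kif2a cKO 5 it was Rpl32l, which was lower. There were 0 such members with library totals and 6 without control 3. Rps27l had 30.9, 30.8, 32.4, 30.1 and 43.0 CPM in Kif2a cKO 1 to 5, against 25.4, 28.5, 34.2, 26.9 and 23.1 CPM in controls 1 to 5. Control 3 lay above 4 of the 5 Kif2a cKO libraries, so the genotypes overlapped. With a log2 fold change of 0.27 (SE 0.121), Rps27l did not pass the threshold (edgeR adjusted p = 0.703), and leaving out each library in turn gave 0.16 (without Kif2a cKO 5) to 0.35 (without control 3). Rps27 averaged 149 ± 28.8 CPM in Kif2a cKO and 138 ± 27.5 CPM in control (SD, n = 5 each), a log2 fold change of 0.11 (SE 0.151). Only 1.35% of the words of Rps27 are unique, against 77.6% for Rps27l.

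Rpl22l1, whose level Rpl22 holds down in mouse, had 7.37, 10.4, 11.3, 11.5 and 14.96 CPM in Kif2a cKO 1 to 5, against 11.3, 11.3, 13.7, 11.2 and 9.02 CPM in controls 1 to 5. Kif2a cKO held both the lowest and the highest value. Its log2 fold change was -0.02 (SE 0.164), beside 0.10 (SE 0.089) for Rpl22, which averaged 138 ± 15.8 CPM in Kif2a cKO and 129 ± 10.7 CPM in control (SD, n = 5 each). Rpl7l1 averaged 56.1 ± 3.83 CPM in Kif2a cKO and 53.6 ± 2.87 CPM in control (SD, n = 5 each). Rpl10, a late-joining protein near the tRNA sites, averaged 241 ± 28.7 and 233 ± 16.5 CPM, and Rpl3 averaged 244 ± 34.0 and 234 ± 27.0 CPM, in Kif2a cKO and in control.

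Rpl3l, which replaces Rpl3 in heart and skeletal muscle, was near the detection limit with 0.235, 0.312, 0.139, 0.208 and 0.843 CPM in Kif2a cKO 1 to 5, against 0.400, 0.143, 0.236, 0.342 and 0.410 CPM in controls 1 to 5. The highest values of the groups were those of Kif2a cKO 5 (25 counts) and control 5 (14 counts), in which the skeletal muscle markers were also highest. Control 1 had 14 counts as well, with skeletal muscle markers summing to only 16.6 CPM. Rpl39l, known from testis, had 1, 2, 0, 2 and 9 counts in Kif2a cKO 1 to 5 and 0, 0, 3, 0 and 0 in controls 1 to 5. Of the rows annotated as pseudogenes, Rps4l had 37.0, 31.8, 28.2, 20.9 and 23.1 CPM in Kif2a cKO 1 to 5, against 22.4, 30.7, 25.2, 21.4 and 14.6 CPM in controls 1 to 5, a log2 fold change of 0.30 (SE 0.196; 0.18 without Kif2a cKO 1 and 0.16 without control 5). Rpl32l had the lowest fold change of all members, -0.30 (SE 0.217; -0.53 without Kif2a cKO 5), at 1.79 ± 0.586 CPM in Kif2a cKO and 2.21 ± 0.305 CPM in control (SD, n = 5 each).

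Genes listed as ribosomal proteins outside the symbol rule gave a like median. Fau, a small-subunit protein made as a fusion with a ubiquitin-like protein, averaged 140.4 ± 19.3 CPM in Kif2a cKO and 131 ± 13.9 CPM in control (SD, n = 5 each), a log2 fold change of 0.10 (SE 0.103). Rack1, a signalling scaffold on the small subunit, averaged 233 ± 21.7 and 217 ± 20.3 CPM, in Kif2a cKO and in control, also 0.10 (SE 0.086). Rps3a1 had a log2 fold change of 0.10 (SE 0.118), Rpl36al -0.03 (SE 0.207) and Rpl37rt 0.29 (SE 0.199). Of the 7 tested genes of this list, which includes the member Rps27a, 5 lay above 0, with a median of 0.10 and a range of -0.06 to 0.29. In the authors' deposited table, 77 of the 83 members were above 0 on the log2 fold scale (median 0.0954). The lowest false discovery rate of a member in the authors' deposited table was 0.582, for Rps27l.

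The machinery around the ribosome was measured from lists of genes. None of their genes was called in either direction by edgeR. At an unadjusted p under 0.05, 1 initiation factor, 2 biogenesis genes, 1 gene of the mTORC1 list and 8 mitochondrial ribosomal proteins were higher, as was the member Rps27l in the p53 list, and 1 gene of the mTORC1 list was lower. Of all tested genes, 2.97% were higher and 4.01% lower at that p, so 1 of 40 initiation factors and 2 of 62 biogenesis genes lay near the share of all genes, whereas 8 of 77 mitochondrial ribosomal proteins lay above it. Of 40 tested initiation factors 31 lay above 0, with a median log2 fold change of 0.04. The most abundant, Eif4g2 and Eif4a2, averaged 873 ± 44.7 and 581 ± 72.4 CPM in Kif2a cKO, against 855 ± 65.0 and 556 ± 31.7 CPM in control (SD, n = 5 each). Of 10 elongation genes 5 lay above 0, with a median of -0.0005. Eef1a2, the neuronal and muscle form of the factor that brings aminoacyl-tRNA, had its lowest level in Kif2a cKO 5 (807 CPM; 1214 to 1539 CPM in the other Kif2a cKO libraries), against 1093 to 1540 CPM in control. Eef2, the translocation factor, averaged 1132 ± 117 CPM in Kif2a cKO and 1198 ± 18.6 CPM in control (SD, n = 5 each).

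Other messenger RNAs with a TOP motif had a median of 0.06 (16 of 23 above 0), and Eef1a1, one of their 2 most abundant with Eef2, averaged 1072 ± 75.2 CPM in Kif2a cKO and 1086 ± 55.6 CPM in control (SD, n = 5 each). Genes of ribosome biogenesis had a median of 0.04 (47 of 62 above 0). Ncl, which encodes nucleolin, averaged 217 ± 24.1 CPM in Kif2a cKO and 210.4 ± 9.42 CPM in control. Of the mTORC1 and LARP1 list, 16 of 25 lay above 0 (median 0.03). Rheb, the GTPase that activates mTORC1, averaged 212 ± 9.37 CPM in Kif2a cKO and 193 ± 5.31 CPM in control, and missed the threshold (log2 fold change 0.14, SE 0.061, edgeR adjusted p = 0.703). Larp1 itself averaged 148 ± 29.97 and 146 ± 25.3 CPM in Kif2a cKO and in control. Targets of p53 in the ribosomal stress response had a median of 0.0010 (7 of 13 above 0, the member Rps27l among them). Cdkn1a, which arrests the cell cycle, averaged 129.6 ± 16.0 CPM in Kif2a cKO and 140.1 ± 15.1 CPM in control (SD, n = 5 each).

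Proteins of the mitochondrial ribosome, a separate particle encoded by nuclear genes, gave values close to those of the cytosolic one. Of 77 tested genes, 66 lay above 0, with a median of 0.09, and 64 of 77 without Kif2a cKO 5 (median 0.05). Their mean log2 CPM was 5.06, 5.04, 5.15, 5.14 and 5.21 in Kif2a cKO 1 to 5, against 4.97, 5.04, 5.07, 5.09 and 5.01 in controls 1 to 5. Kif2a cKO 5 was again the highest library, whereas control 3 was not the highest control. Mrpl41 had the larger difference of its 2 most abundant genes, at 93.3 ± 9.83 CPM in Kif2a cKO and 80.9 ± 4.81 CPM in control (SD, n = 5 each; log2 fold change 0.21, SE 0.079, edgeR adjusted p = 0.703).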

How the data were processed

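Polyadenylated RNA of 10 dorsal root ganglion samples was sequenced, and the sample titles gave each group and its numbering. Per the submitters' processing notes, cutadapt, STAR, DESeq2 and the mm10 build were used, without versions. What counted the reads, with which annotation, strand setting and rule for shared reads, is not given in the sources used here. For every test, the raw counts that the authors deposited for each gene and library were taken. The authors also deposited a log2 fold change of KO over WT, a p-value and a false discovery rate, per the file headers from fdrtools. A further 20 columns of normalised per-sample values were not used.

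The tests used edgeR 4.0.16 (R 4.3.3) with the group as the only term, TMM scaling (factors 0.957 to 1.05), filterByExpr (minimum count 10, minimum total 15), robust quasi-likelihood F tests and Benjamini-Hochberg adjustment over the 17439 genes tested. The filter removed 6484 genes. Log2 CPM used a prior count of 2, and the standard error is the size of the log2 fold change divided by the square root of F. Alternatives were DESeq2 1.42.0, limma-voom (limma 3.58.1), other scalings and filters, a replicate block, left-out libraries, a spinal cord covariate and removal of the length trend (lowess, fraction 0.3, 98.2% of tested genes with a length). No 2 libraries of a group agreed within sampling noise (lowest chi-square 9.50 per gene).

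Positions, lengths and biotypes came from GENCODE M21 (GRCm38), which matched 97.4% of symbols and all 83 members. Start sites came from RefSeq. The members and all gene lists were chosen with earlier results of these data known. Named members are the 8 of lowest p among those above 0, all 6 below 0, the 5 of highest and of lowest level per kb, and the paralogs with their partners. Other named genes are the 2 most abundant of each list. A few genes are not reported here by name, and the plots leave them out, while counts and medians include them.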

Additional observations from a re-analysis of the deposited data

Results flagged for a closer look

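In groups of 5 libraries, the highest or lowest library was compared with its nearest neighbour relative to the whole range, and 14 of 100 groups tested had a library that stood apart. For independent groups, chance alone gives about 1 in 20. The groups here share the same libraries, and the members vary together. The 14 are therefore not independent and cannot be set against that share. Kif2a cKO 5 stood apart above the other Kif2a cKO libraries for Rps27l (43.0 CPM), Rpl7 (289 CPM), Rps25 (167 CPM), Rpl10 (292 CPM), Rpl32l (2.80 CPM), Rpl3l (0.843 CPM) and Rpl39l (0.303 CPM). Control 3 stood apart above the other controls for Rps25 (139 CPM), Rpl8 (338 CPM), Rps14 (452 CPM), Rps15 (438 CPM), Rpl39l (0.0885 CPM, from 3 counts) and the ribosomal protein share of counts (1.37%). Control 5 stood below the other controls for the mean of the annotated pseudogene rows (2.36 log2 CPM).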

How the results depend on the processing

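No ribosomal protein gene was called higher or lower under any setting run. The median log2 fold change of the members stayed above 0 throughout, from 0.0149 to 0.1501 with each library left out in turn, and it was 0.0701 with library totals, which put the median of all genes at -0.03 and the share of all genes above 0 at 41.5%, and 0.0622 in limma-voom. The difference in the ribosomal protein share of counts ran from -0.0233 to 0.104 percentage points with each library left out, and 0.0296 without Kif2a cKO 5 and control 3 together. The count of all genes called was 3, against 0 with the stricter filter, 32 in DESeq2, 0 with the replicate block, 0 without controls 1, 3 and 5, 1 without Kif2a cKO 5 and control 3 together, and 0 to 3 with each library left out in turn. Of the named members, fold changes that crossed 0 were all within their error. Left-out libraries gave ranges of -0.1713 to 0.0797 for Rpl30, -0.1287 to 0.025 for Rplp2, -0.162 to 0.0949 for Rpl22l1, -0.0577 to 0.0461 for Rpl8, -0.0117 to 0.208 for Rps27, -0.0286 to 0.115 for Rplp1, -0.0066 to 0.103 for Rps15, -0.0268 to 0.120 for Rpl3 and -0.0355 to 0.0795 for Rpl10. Rpl8 was also above 0 in limma-voom (0.0054), without controls 1, 3 and 5 (0.0704), with the spinal cord covariate (0.0389) and without Kif2a cKO 5 and control 3 together (0.0078), and Rpl22l1 with the covariate (0.0078). Without both Kif2a cKO 5 and control 3, Rplp2 was at 0.0274 and Rpl10 at -0.0086. The cause was not tested. Same-numbered samples had correlations of their deviations of 0.177, 0.367, 0.140, -0.147 and 0.252, and with 1 of the 5 below 0.1 the numbers were not taken as pairs. The sample titles also give same-numbered samples of both genotypes consecutive sample numbers, without naming pairs or batches. The replicate numbers may thus still mark something shared, as a hint from the titles and the data. The replicate block gave a median of 0.0959 for the members. The samples numbered 4 had number 3 as their best partner, and the others their own number. At 5 libraries a group and standard errors near 0.107, differences of the size of the median could not be told from 0 gene by gene.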

Other observations

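The table also holds 126 rows named as pseudogenes of ribosomal proteins, of which 46 were tested. Of these, 35 lay above 0 in log2 fold change (median 0.16), and none was called in edgeR, with 2 of 46 higher and 0 lower at an unadjusted p under 0.05, near the 2.97% of all genes that were higher at that p. The median was 0.06 without Kif2a cKO 5, and 0.09 to 0.10 without control 1, 2 or 4. Their summed level was 79.9, 86.7, 103, 91.4 and 105 CPM in Kif2a cKO 1 to 5, against 60.5, 91.0, 96.3, 77.1 and 85.7 CPM in controls 1 to 5. The summed level of the ribosomal protein genes in the same libraries was 10830 to 14545 CPM in Kif2a cKO and 10482 to 13384 CPM in control.

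Markers of myelinating Schwann cells, the glia that wrap axons, had fold changes in the other direction. All 12 had a fold change below 0 (median -0.32), 8 of them at an unadjusted p under 0.05 (4.01% of all genes were lower at that p), and none was called in edgeR. Their summed level was 21518 to 33946 CPM in Kif2a cKO and 29750 to 39995 CPM in control. The list holds Mbp and Mag, which oligodendrocytes of the spinal cord also express. Mag had 68.0, 54.7, 90.7, 68.8 and 86.6 CPM in Kif2a cKO 1 to 5, against 137, 75.8, 307, 87.7 and 156 CPM in controls 1 to 5. Its highest controls, 1, 3 and 5, were also those where spinal cord markers were highest. Sensory neuron markers lay above 0 in 16 of 18 (median 0.14). The part of these cells and of the spinal cord transcripts in the ribosomal protein levels was not tested.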
